A study of Mus musculus with 4 samples.

Results

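Cxcl1, Ccl2, Lcn2 and Cd14 are innate inflammatory genes, described here in primary hepatocytes of the mouse in culture. They are 4 of the 19284 gene identifiers in the deposited values, taken by mapping the Ensembl identifiers to GENCODE symbols, and all 4 had a row. The study compared hepatocytes left as control with hepatocytes given NEAA, non-essential amino acids, those an animal need not eat, with 2 samples in each group. The labels give no strain, sex, age, dose or duration. Whether the replicates of a group are different cultures, animals or only repeat preparations is not stated, so the p-values cover the spread between the samples at hand, which may be technical. The purpose stated for the series was the effect of NEAA on long non-coding RNA, and its title names proline, glucose production and paraspeckles.

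The 4 genes stand at successive steps of the response to bacterial products. CD14 binds lipopolysaccharide (LPS), a bacterial wall component, and hands it to the receptor pair TLR4 and MD-2, which signals through MYD88 to the transcription factor NF-κB. CXCL1 and CCL2 are chemokines made downstream of such signals, the former attracting neutrophils through CXCR2 and the latter attracting monocytes through CCR2. LCN2 (lipocalin 2) is secreted by hepatocytes in inflammation and withholds iron from bacteria by binding their siderophores. Hepatocytes are known to switch on genes of this kind when they are isolated and plated.

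The values are FPKM, fragments scaled to transcript length and to the mapped fragments of the library, given for each row of a file. A row is called a model here, since it carries a gene identifier without a transcript name. Protein-coding identifiers had as many models as GENCODE annotates retained-intron transcripts in 8991 of 9266 cases, and this held for all 4 genes, with 1 model each for Cxcl1, Ccl2 and Cd14 and 3 for Lcn2. The values may therefore stand for intron-retaining RNA, and they cannot be read as mRNA levels. A gene may likewise lack a row for want of such an annotated transcript, so a missing row does not show absence of expression. The candidate transcripts overlap the spliced mRNA to different extents. Cxcl1-202 is a single unspliced exon of 1871 bases that holds all 3 introns of the coding transcript, and 50.7% of its bases lie in exons of that transcript. Ccl2-202 retains intron 2 of 2, with 70.3% of its bases in coding-transcript exons. Cd14-202 retains the only intron of Cd14, 91 bases, and 89.5% of its bases are shared with the coding transcript. In the 3 retained-intron transcripts of Lcn2 the shared part is 40.2%, 61.9% and 41.6%. How the quantification divided reads between spliced and unspliced forms is not given in the sources used here.

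**Figure D1:**
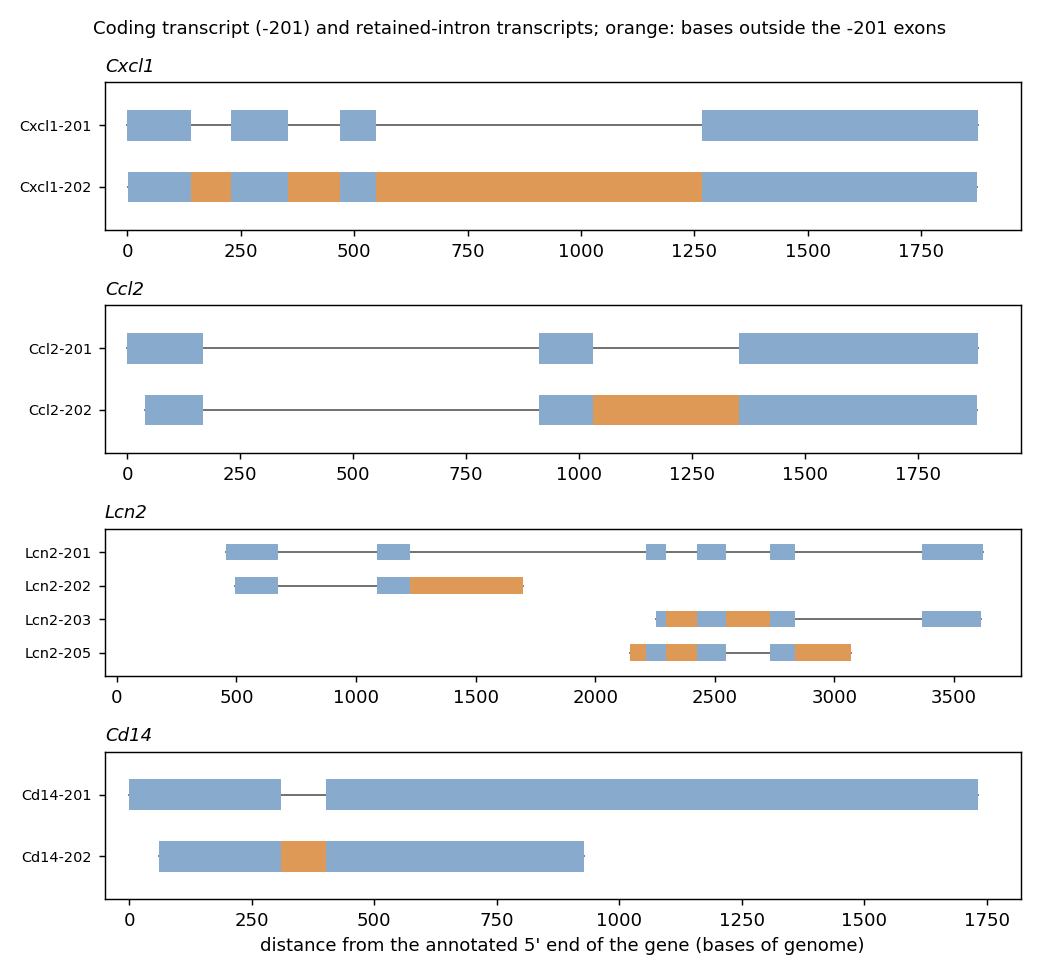
Exons of the coding transcript and of the annotated retained-intron transcripts of each gene, by distance in bases from the 5′ end of the gene, with bases outside the coding exons in orange. The orange part is largest in Cxcl1-202, with 922 bases, and smallest in Cd14-202, with 91 bases.

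The sequences that distinguish these RNAs from the mRNA are introns retained whole or in part. Lcn2-202 holds only part of intron 2, and Lcn2-205 holds parts of introns 2 and 5 beside the whole of intron 3. Sequences from wholly retained introns are shown for the 3 genes for which sequence is given. They were read from the GENCODE transcripts on the strand of the gene (build GRCm38), with the first and last intron bases, the splice donor and acceptor dinucleotides, in capitals. Introns 1 and 2 of Cxcl1 lie at chr5:90891381-90891469 and chr5:90891594-90891708, plus strand. Intron 3 of Lcn2 lies at chr2:32385826-32385955, minus strand, and is held whole by both Lcn2-203 and Lcn2-205. For Ccl2, the 60 bases around the donor of intron 2 are given, chr11:82036571-82036630, plus strand, with the donor in capitals after 30 exon bases. The Ccl2 intron itself has 325 bases and the third Cxcl1 intron 718. All begin with GT and end with AG.
Cxcl1 intron 1: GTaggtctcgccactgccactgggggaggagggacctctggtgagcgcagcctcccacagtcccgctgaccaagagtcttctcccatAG
Cxcl1 intron 2: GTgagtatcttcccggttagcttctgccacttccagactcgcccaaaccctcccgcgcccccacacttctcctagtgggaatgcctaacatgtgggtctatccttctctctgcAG
Lcn2 intron 3: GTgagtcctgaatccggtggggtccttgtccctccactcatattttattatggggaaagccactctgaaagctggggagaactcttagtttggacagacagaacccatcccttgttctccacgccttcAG
Ccl2 donor of intron 2: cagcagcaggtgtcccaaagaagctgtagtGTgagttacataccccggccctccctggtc

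Among the RefSeq promoters (250 bases before to 50 after the start, GRCm38.p6), those of Cxcl1 and Lcn2 were matched. The NF-κB consensus, searched on both strands, occurred in the Cxcl1 promoter as GGGAATTTCC, at position -71 from the start, overlapping a match of the opposite-strand form, GGAATTTCCC, at -70. It was not in the Lcn2 window, and 8.46% of all 32851 promoters in the table held it.

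All 4 genes were measurable in every sample, and their mean levels were higher in NEAA, but only Cd14 passed a test, and only when models were summed per gene. Cd14 stood at 2.28 ± 0.307 FPKM in control and 4.72 ± 0.310 in NEAA (SD, n = 2), a ratio of 2.07. The ratio of NEAA to control means was 1.40 for Cxcl1, 1.38 for Ccl2 and 1.18 for the Lcn2 sum, none of which passed. The order of levels was the same in all 4 samples, Lcn2 first, then Cxcl1, Ccl2 and Cd14. The Lcn2 sum was 2.65 to 4.04 times the Cxcl1 level, Cxcl1 was 1.5 to 2.19 times Ccl2, and Ccl2 was 1.81 to 4.19 times Cd14. The ranges of neighbouring genes over the 4 samples did not overlap, except that the highest Ccl2 value lay above the lowest of Cxcl1.

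Cd14, the LPS co-receptor (ENSMUSG00000051439, chromosome 18, 36725067 to 36726798, minus strand), had FPKM of 2.06 and 2.50 in control and 4.50 and 4.94 in NEAA. Both NEAA samples were above both control samples, and the distance between the groups was larger than the spread within them. On the log2(FPKM + 1) scale, which understates changes at low levels, the difference was 0.81 (SE 0.14, 95% interval 0.41 to 1.20). Fitted among all models, this did not pass (limma adjusted p = 0.0717). Fitted among sums per gene, the same values passed (limma adjusted p = 0.0393). The pooled spread and the adjustment there come from a different set of rows, and what moved the call was not tested. The call was lost in the fit with the replicate number as a block (limma adjusted p = 0.0701) and without any single sample (0.104 to 0.151), each leaving fewer degrees of freedom.

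Cxcl1, the neutrophil chemokine (ENSMUSG00000029380, chromosome 5, 90891241 to 90893115, plus strand), had FPKM of 14.8 and 13.2 in control and 17.8 and 21.6 in NEAA. The groups did not overlap, though the NEAA samples lay further apart than the control samples. The log2 difference was 0.46 (SE 0.17, 95% interval -0.03 to 0.94) among models and did not pass (limma adjusted p = 0.208), nor did it among gene sums (limma adjusted p = 0.142).

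Ccl2, the monocyte chemokine (ENSMUSG00000035385, chromosome 11, 82035571 to 82037453, plus strand), had FPKM of 8.63 and 7.73 in control and 8.16 and 14.4 in NEAA. NEAA replicate 1 fell between the control samples, so the higher NEAA mean came from replicate 2 alone. The log2 difference was 0.37 (95% interval -0.46 to 1.21, limma adjusted p = 0.483), and without NEAA replicate 2 it was -0.00183. Ccl2 lies within Gm17268 (82028224 to 82038562), annotated on the other strand, and since no strand setting is stated, reads of these genes cannot be told apart. Gm17268 had no row of its own.

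Lcn2, the siderophore-binding protein (ENSMUSG00000026822, chromosome 2, 32384633 to 32388252, minus strand), summed to 43.7 and 53.4 FPKM in control and to 57.3 and 57.2 in NEAA. The NEAA sums lay close together and above both controls, the nearer of which was control replicate 2. The log2 difference of the sum was 0.24 (95% interval -0.17 to 0.65, limma adjusted p = 0.359), and it was 0.10 without control replicate 1. Its models, are numbered in file order and cannot be tied to a transcript. Model 1 measured 31.3 and 30.3 FPKM in control and 32.2 and 39.5 in NEAA, and its groups did not overlap. Model 2 measured 2.29 and 3.30 against 4.98 and 2.82. Model 3 measured 10.1 and 19.9 against 20.2 and 14.8, with a sign that turned without control replicate 1 (log2 difference -0.19). The groups overlapped for models 2 and 3. Model 1 held 71.6% and 56.6% of the Lcn2 sum in control and 56.2% and 69.2% in NEAA, and model 3 held 23.2% and 37.2% against 35.2% and 25.9%. The division between the models thus differed more between replicates than between the group means. The log2 differences of the Lcn2 models were 0.21, 0.34 and 0.26, with limma adjusted p-values of 0.502, 0.502 and 0.690. The difference of model 1 was 0.06 without NEAA replicate 2, and that of model 2 was 0.02 without NEAA replicate 1 and 0.15 without control replicate 1.

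**Figure D2:**
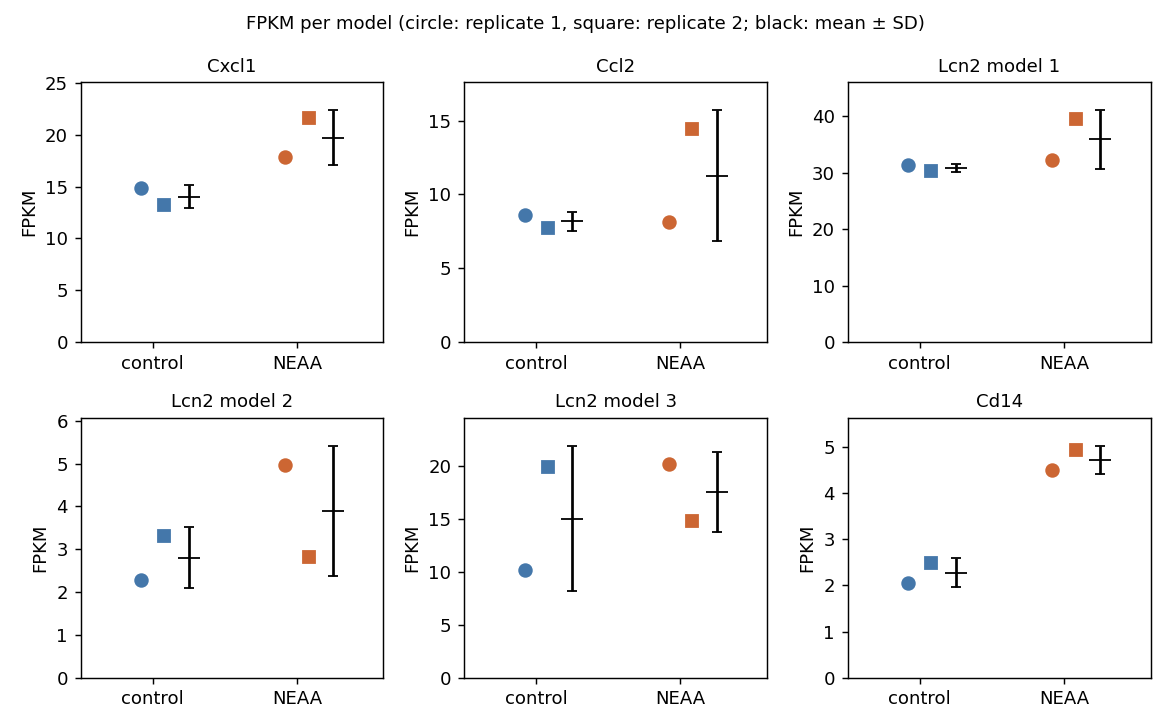
FPKM of each model of the 4 genes in the control and NEAA samples, with replicates as separate symbols and the mean ± SD (n = 2) in black on axes that start at 0. The groups do not overlap for Cxcl1, Cd14 and Lcn2 model 1, and do overlap for Ccl2 and for Lcn2 models 2 and 3.

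Of the 6 models of the 4 genes, all of which passed the level filter of a mean of 1 FPKM, 0 were called by limma at an adjusted p under 0.05, and 1, that of Cd14, had an unadjusted p under 0.05. Over all 6064 models tested, 1569 had an unadjusted p under 0.05. Of the 6064, 2.90% were called, 1.95% higher in NEAA (118 models) and 0.956% lower (58). With each sample rescaled to the same FPKM sum, the split was 90 higher and 20 lower. Of the 4 gene sums, 1 was called, and it was higher. Over the 4700 sums tested, 10.1% were called, 6.00% higher (282 sums) and 4.11% lower (193), and rescaling gave 390 higher and 86 lower. Both NEAA samples exceeded both controls for 3 of the 6 models, against 22.8% of all models, and for 3 of the 4 sums, against 26.2%. Groups without overlap in either direction made up 58.8% of all models and 60.6% of all sums. The log2 fold change was above 0 for all 6 models, against 41.1% of all models, and for all 4 sums, against 44.9%, with a median of 0.36 for these models and -0.09 for all. The 6 models come from the same 4 libraries and 3 of them from 1 gene, so their shared sign is not a count of independent observations. Rescaling to an equal sum raised the median of all models by 0.16 and gave the 6 models a median of 0.63, with 0.62 for Ccl2 and 0.46 for the Lcn2 sum.

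**Figure D3:**
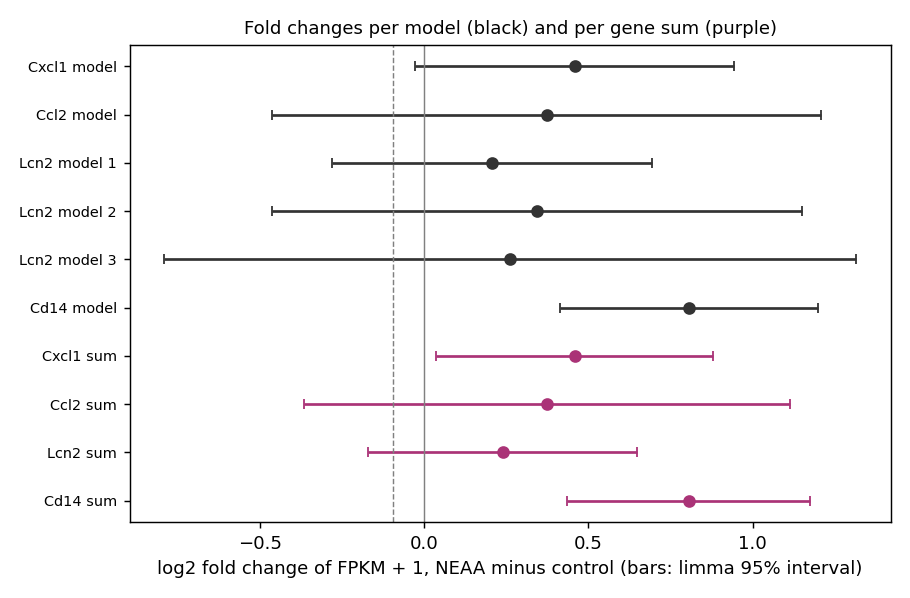
Log2 fold changes of FPKM + 1, NEAA minus control, for each model (black) and each gene sum (purple), with limma 95% intervals, and the median of all tested models as a dashed line. Only the intervals of Cd14 (both fits) and of the Cxcl1 sum (0.04 to 0.88) lie above 0, and only the Cd14 sum passed after adjustment.

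The precision behind these levels was gauged only roughly, from the low values. For genes with a single model and a single transcript, FPKM multiplied by length tended to fall at whole multiples of a step, with 43.8% to 50.2% of low values within 0.05 of a whole number, against 10% for evenly spread values. The step was chosen in each sample, within a set range, as the one these same values fitted best. The 10% holds for a step fixed beforehand, so the share is not a test of the step. The step corresponds to 25200000 to 27700000 fragments per sample. If the Cd14 model is Cd14-202 (868 bases), its values would equal about 45 and 60 fragments in control and 104 and 108 in NEAA. Those of Ccl2 would equal about 239, 235, 237 and 398, and those of Cxcl1 about 701, 687, 885 and 1017. These equivalents rest on the fitted step and the annotated lengths and were not used in any test.

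The few models of other chemokines and cytokines that could be tested lay lower in NEAA, though none of them passed. Of 30 listed genes 14 had a row, and 5 models of 3 genes (Cxcl16, Ccl25 and Mif) could be tested. All 5 were lower in NEAA by log2 fold change (median -0.51, against -0.09 over all models), 4 of 5 after rescaling to an equal sum. Limma called 0 of them, and 4 had an unadjusted p under 0.05, against 1569 of all 6064 models. The higher Cxcl16 model, of a membrane-bound chemokine for CXCR6-bearing cells, measured 13.2 and 10.7 FPKM in control and 7.53 and 8.64 in NEAA. The higher Ccl25 model, of a ligand of CCR9, measured 4.41 and 4.86 against 2.72 and 3.30. As sums, Mif, the macrophage migration inhibitory factor, fell from 3.54 and 3.69 to 1.98 and 2.01 FPKM (log2 difference -0.62, limma adjusted p = 0.0464). This call was lost with the replicate block (limma adjusted p = 0.0944), without the level filter (0.0837), after both rescalings (0.0973 and 0.0623) and without any single sample (0.139 to 0.171). Mif was the only sum of 4 on this list called lower, against 4.11% of all sums.

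Cxcl2, which like Cxcl1 codes for a neutrophil chemokine acting on CXCR2, was singled out after its values were seen. Its models summed to 1.52 and 1.88 FPKM in control and to 0.637 and 0.734 in NEAA. Both NEAA samples were below both controls, where Cxcl1 had both above. Cxcl2 reached the level filter only through the control samples, and neither of its models did alone, so its values are a description with no test. Reads of these similar genes could be split between them by the quantification. The models of this list that were too low to test differed in both directions. NEAA was wholly above control for Cxcl12, at 0.333 and 0.184 against 0.684 and 0.706 FPKM, and for models of Il1rn, Cxcl3 and Cxcl10, and wholly below for Csf1, Il1b, Ccl5 and Cxcl2. The groups overlapped for Cxcl5, Cxcl9, both models of Ccl6 and the other model of Cxcl10. Il6, Tnf and Ccl7 had no row.

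The steps between CD14 and these chemokines were only partly covered. Of 26 listed genes of LPS recognition and Toll-like receptor signalling 14 had a row, and Tlr4 was not among them. Lbp, whose secreted protein passes LPS to CD14, measured 0.285 and 0.250 FPKM in control and 0.951 and 1.33 in NEAA, below the level filter. Ly96, which codes for MD-2, measured 0.284 and 0.428 against 0.689 and 0.424. The groups did not overlap for Lbp and did for Ly96. Both genes are given beside the rule for named genes. Lbp was the only model of this list with both NEAA samples above both controls. Of the other untested models, those of Traf3, Tab1, Tollip and Ticam2 and some of Tab2, Irak1 and Irak2 were lower in both NEAA samples. Without the level filter, 6 of 24 models had a log2 fold change above 0 and 18 below. Of the 9 tested models of 5 genes, limma called 0, 7 were lower in NEAA, and the median was -0.08, near that of all models. Of the 9, 1, that of Myd88, had an unadjusted p under 0.05, against 1569 of all 6064 models. After rescaling to an equal sum 3 of the 9 were lower and the median was 0.05. The highest were Ripk1, a kinase of TNF and Toll signalling, at 5.43 and 5.15 against 4.94 and 4.76 FPKM, and a model of Irak1, a kinase that MYD88 recruits, at 1.74 and 1.88 against 0.762 and 3.29. Myd88 itself, singled out after its values were seen, measured 2.99 and 2.31 FPKM in control and 0.248 and 1.09 in NEAA. Both NEAA samples were below both controls. Myd88 reached the level filter only through the control samples, so its values are a description, and its unadjusted p counted above is not read as a test.

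Of 28 listed NF-κB subunits, kinases and inhibitors 21 had a row. Of 26 tested models, 1 rose and 0 fell, near the 2.90% called among all models. Of the 26, 8 had an unadjusted p under 0.05, against 1569 of all 6064 models. Among the 8 were models of Relb, Nfkbie and Bcl3 that reached the level filter through 1 group only. Their unadjusted p-values are not read as a test. In all 16 were lower in NEAA, and the median was -0.16. After rescaling to an equal sum 13 were lower and the median was -0.01. The model that rose was that of Birc2, a ubiquitin ligase of TNF receptor signalling, at 1.22 and 1.11 FPKM in control and 4.17 and 4.24 in NEAA (log2 difference 1.26, limma adjusted p = 0.0320, or 0.135 with the replicate block and 0.140 to 0.187 without any single sample). Nfkb1, the gene of the p50 subunit, summed to 28.6 and 32.2 FPKM in control and 20.3 and 21.9 in NEAA, lower in both NEAA samples without passing (limma adjusted p = 0.0937). Tnfaip3, an inhibitor that NF-κB itself induces, summed to 10.6 and 11.7 FPKM in control and 11.4 and 12.4 in NEAA, with overlapping groups. Besides Birc2, the sums of Bcl3, Nfkb2 and Nfkbie were higher in both NEAA samples. Those of Relb and Ikbke, like Nfkb1, were lower in both, and none of these passed. Relb and Nfkbie reached the level filter through 1 group only. Nfkb1, Tnfaip3 and these sums are given beside the rule for named genes and were chosen after their values were seen.

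Of 33 listed acute phase and STAT3 genes, where Lcn2 is often counted, 8 had a row. Of the 9 tested models, of Cp, Itih3 and Itih4, 6 rose and 0 fell, with a median log2 fold change of 1.19. Over all tested models 1.95% rose, and the median was -0.09. As 7 of the 9 models are of Cp, read in the same 4 libraries, they are not independent observations. With the replicate block, or without any single sample, limma called 0 models of the list. The rises were in 5 of the 7 models of Cp, the gene of the copper protein ceruloplasmin, and in Itih3. No model of Stat3 or Tyk2 reached the level filter. The Stat3 sum, 5.41 and 4.92 FPKM in control and 5.98 and 6.22 in NEAA, did not pass (log2 difference 0.20, limma adjusted p = 0.347). The 4 Cp models of smallest p had log2 differences of 1.29 to 2.40, the highest being that of model 6, at 35.4 and 36.5 FPKM in control and 161 and 235 in NEAA (limma adjusted p = 0.0346). Itih3, which codes for a protein that binds hyaluronan, lies outside the rule for named genes and rose from 18.9 and 18.0 to 43.0 and 42.5 FPKM (log2 difference 1.17, limma adjusted p = 0.0455). The Cp rise was already known from earlier results of these data and is not independent support. Saa1 and Saa2, the serum amyloid A genes, are near-identical copies that could share reads, and were both low. Saa1 measured 0.276 and 0.239 FPKM in control and 0.589 and 0.865 in NEAA, and Saa2 0.0651 and 0.130 against 0.263 and 0.352. Both were higher in both NEAA samples but below the level filter and not tested, and both lie outside the rule for named genes. Among receptors, Cxcr2 and Ccr2 had no row, and models of Slc22a17, a receptor for LCN2, were at most 0.115 FPKM. The only tested receptor gene, Ifngr1 for interferon gamma, measured 2.62 and 5.02 FPKM in control and 4.71 and 5.03 in NEAA in its higher model and 2.56 and 3.26 against 4.36 and 3.62 in the other. Limma called 0 of these 2 models, with 0 at an unadjusted p under 0.05.

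**Figure D4:**
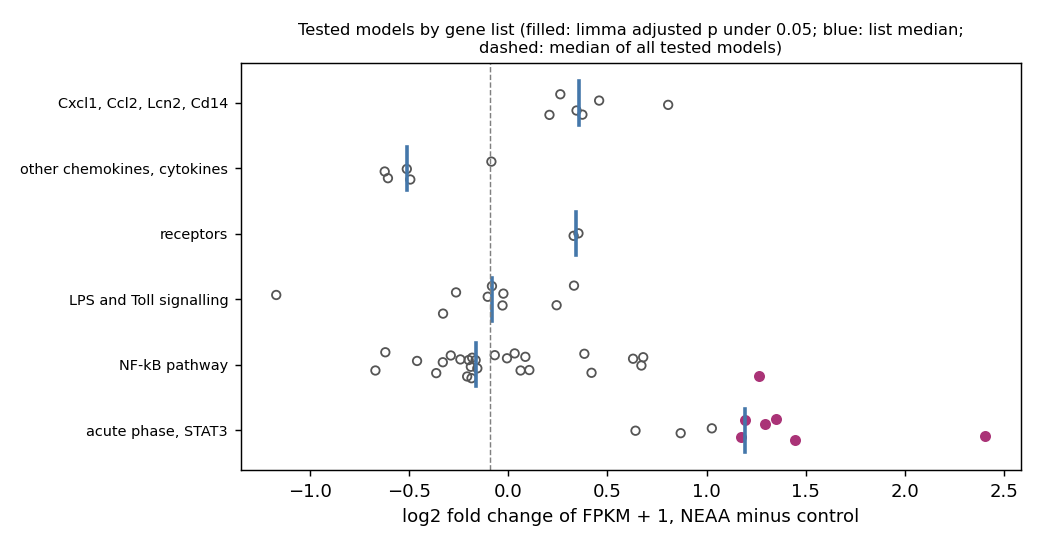
Log2 fold changes of FPKM + 1, NEAA minus control, of every tested model, by gene list, with filled points for models called by limma, a blue bar for the list median and a dashed line for the median of all tested models. The 6 models of Cxcl1, Ccl2, Lcn2 and Cd14 lie above 0, the 5 of other chemokines and cytokines below 0, and calls appear for 1 NF-κB pathway model and 6 acute phase models.

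CD14 and the chemokines are also made by liver macrophages, so markers of other cells were read beside them. Of 18 macrophage markers 4 had a row (Csf1r, Ptprc, Mrc1 and Cd163), and none of their 11 models reached a mean of 1 FPKM. Their FPKM summed to 1.33 and 1.47 in control and to 1.29 and 2.63 in NEAA, with overlapping groups. Csf1r, the receptor that defines the lineage, was listed at 0 in control replicate 1 and NEAA replicate 2 and was at most 0.0302 in the others. Cd163 measured 0.403 and 0.473 FPKM in control and 0.744 and 0.778 in NEAA, with both NEAA samples higher. The highest model of Ptprc, the general leukocyte gene, measured 0.210 and 0.389 against 0.0181 and 0.906, with overlapping groups. The part of macrophages in the Cd14 difference was not tested. Adgre1, Cd68 and Clec4f had no row, which, as for the hepatocyte gene Alb below, does not show absence of expression. Neutrophil markers had a row for 3 of 12 genes and summed to 0.328 and 0.392 FPKM against 0.0575 and 0.0323, Mpo and Ltf being listed at 0 throughout. Endothelial markers (9 of 12 genes) summed to 5.45 and 5.14 against 4.38 and 5.32, and stellate cell and fibroblast markers (7 of 12) to 3.12 and 2.28 against 2.11 and 1.98. Cholangiocyte markers (2 of 8) summed to at most 0.0118. Of 18 hepatocyte markers 7 had a row, Alb, Apoa1 and Ttr not among them, and they summed to 24.5 and 30.9 FPKM in control and 59.9 and 60.6 in NEAA. Most of this came from the transferrin gene Trf, whose sum rose from 22.5 and 28.1 to 57.1 and 55.8 FPKM (limma adjusted p = 0.0279, or 0.0607 with the replicate block and 0.0748 to 0.116 without any single sample). Trf moved the same way as Cd14, and its part in the Cd14 difference was not tested. The other hepatocyte markers had no model with a mean of 1 FPKM. Tdo2 and Cyp3a11 were higher in both NEAA samples, at most at 0.869 FPKM, while the groups overlapped for Asgr2, Cyp2e1, Hpd and the models of Ass1. In such bulk samples a change in the number of cells of a type and in RNA per cell cannot be told apart.

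The genes whose profiles over the 4 samples lay closest to each gene were found by the distance between centred log2(FPKM + 1) values. For Cd14 they were Sec11a, a signal peptidase subunit, at a distance of 0.0228, Nedd4l, a ubiquitin ligase, at 0.0313, and Kifc3, a kinesin, at 0.0605. The Sec11a model measured 2.15 and 2.58 FPKM in control and 4.68 and 5.01 in NEAA. For Cxcl1 they were Shroom3 (0.0546), Hp1bp3 (0.0600) and Phip (0.0609), and for Ccl2 Cnbd2 (0.0456), Gsdmd (0.104), which codes for the pore-forming protein of pyroptosis, and Pdia6 (0.124). The Gsdmd model shared the high value in NEAA replicate 2, at 1.10 and 0.959 FPKM in control and 1.20 and 2.47 in NEAA. For Lcn2 model 1 they were Togaram1 (0.0440), Hif1a (0.0474), the hypoxia-inducible factor gene, and Brcc3 (0.0485). With 4 samples a close profile can arise among many models, and none of these 4 genes was among the 3 closest of another.

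**Figure D5:**
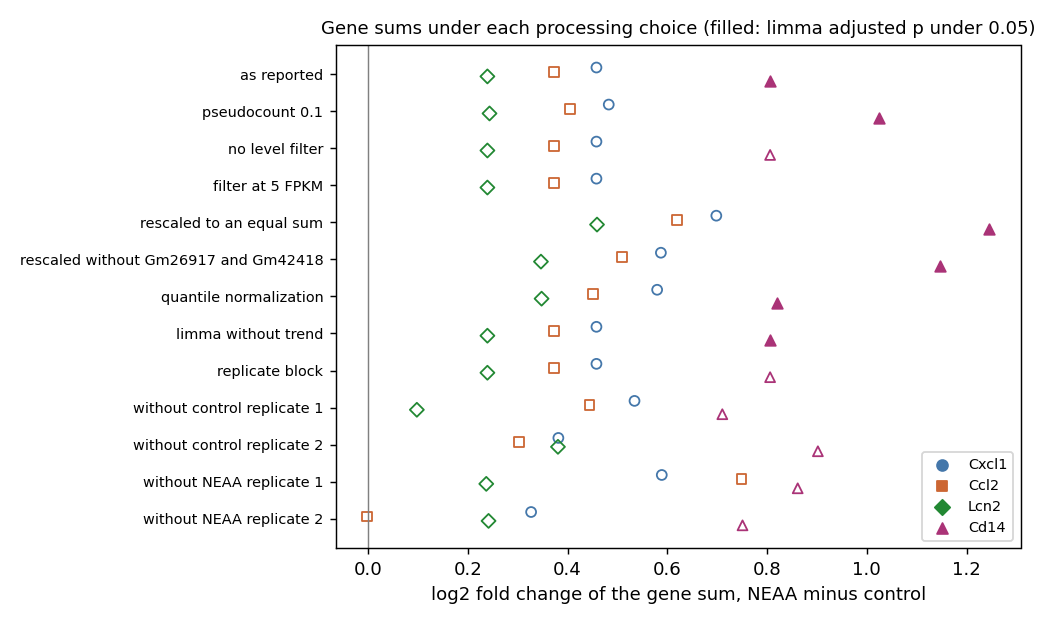
Log2 fold change of each gene sum, NEAA minus control, under each processing choice and with each sample left out, with filled symbols where limma's adjusted p was under 0.05. Cd14 lies between 0.71 and 1.25 throughout and is filled in 6 of its 12 rows, while Ccl2 falls to 0 without NEAA replicate 2.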

How the data were processed

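The authors deposited FPKM per transcript model, 37363 rows in each of 4 files, a unit their file names carry. Per the labels' protocols, libraries were built with an NEBNext Ultra RNA kit from Trizol-extracted RNA. The submitters' processing notes name the builds GRCm38 and mm10. For the aligner, quantifier, annotation release and strand setting, nothing is given in the sources used here. FPKM are relative within a library, and a listed 0 can be a failed estimate.

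Rows were joined by position and identifier, and 19171 identifiers were found in GENCODE M21. Models averaging 1 FPKM or more over the 4 samples were compared between groups as log2(FPKM + 1) in limma 3.58.1 (R 4.3.3), with a variance trend, 2-sided, with Benjamini-Hochberg adjustment over all 6064 models. FPKM summed per gene were fitted likewise over 4700 genes. Rose and fell stand for an adjusted p under 0.05. The fit was tested on simulated data. FPKM summed to 60942.0 to 73600.1 per sample. The closest profiles used tested models with a gene symbol that is not clone based. Named list genes were up to 4 called models of smallest p per list or, with none called, the 2 highest. Some others are said to be chosen later. Lbp, Ly96, Saa1, Saa2, Cxcl12, Slc22a17, Mif, Stat3 and the other untested list genes named also lie outside this rule. The genes and lists were chosen with earlier results of these data known.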

Additional observations from a re-analysis of the deposited data

How the results depend on the processing

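No member model was called under any of the alternatives run, and the direction was kept except for Ccl2 without NEAA replicate 2 (log2 difference -0.00183, model and sum alike) and Lcn2 model 3 without control replicate 1 (-0.19). The Cd14 sum passed under another pseudocount, both rescalings, quantile normalization and limma without trend. It did not without the level filter (log2 difference 0.81, limma adjusted p = 0.0726), with the replicate block (0.81, adjusted p = 0.0701) or with any sample left out (0.71 to 0.90). Rescaling to a sum of 1000000 also makes the pseudocount smaller relative to the values. Leaving out a sample leaves a lone sample in its group, assumed to vary like the others. The replicate numbers are not stated to mark shared animals or days, and deviations of same-numbered samples correlated with r = -0.00192 across models. The replicate block called 0 models (1323 at an unadjusted p under 0.05) and 185 sums, 139 higher and 46 lower. Without the level filter limma called 0 of 25076 models (4000 unadjusted) and 244 sums, 181 higher and 63 lower. At 5 FPKM it called 100 models, 46 of them higher, and 153 sums, 73 higher and 80 lower, and Cd14 and Lcn2 model 2 were not tested as models, nor Cd14 as a sum. After rescaling to an equal sum 110 models were called, 20 lower, and 86 sums were lower. Without Gm26917 and Gm42418 it was 104 models, 78 higher and 26 lower, and 127 sums lower. With a sample left out, the Ccl2 difference ranged from -0.00183 to 0.75 and that of Lcn2 model 3 from -0.19 to 0.71. In these fits 0 models were called in each case (1077 to 1223 unadjusted), and 0 to 88 sums, 0 to 62 higher and 0 to 26 lower. The NF-κB list had 0 called models without the level filter, at 5 FPKM, with the replicate block and with any sample left out, and the acute phase list 0 under the same settings except 5 FPKM. Leaving out a sample or adding the block leaves fewer degrees of freedom, and dropping the filter adds models to the adjustment. At 5 FPKM Birc2, the called model of the NF-κB list, was below the filter and not tested. What caused the other changes, including the calls lost with a sample left out, with the block or without the filter, was not tested.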
